A study of Mus musculus with 34 samples.

Results

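Chymotrypsin C is a digestive protease that pancreatic acinar cells make and that cuts other protease precursors. The mouse gene named for it, Ctrc, is listed by RefSeq as a transcribed pseudogene. It was measured here in the liver of juvenile C57BL/6 mice together with 8 other genes of the acinar secretory programme: the chymotrypsin genes Ctrl and Ctrb1, the elastase genes Cela1 and Cela3b, the carboxypeptidase genes Cpa1 and Cpb1, the colipase gene Clps, and Reg1, which encodes a secreted lectin-like protein. The 9 genes were found by matching the RefSeq accession of each non-control probe to the gene symbol, and each had 1 probe among the 33269 genes of the array. Ctrc was chosen by its log2 ratios in these arrays, which were low in all hypo pups, so its hypo values are given as a description without a test. The other 8 served to tell that pattern from acinar RNA carried by single samples.

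All pups were 15 days old. Control pups came from untreated dams and had a saline injection 4 h before collection (4 males, 4 females). In the hypo group the dams drank 0.05% methimazole and 1% perchlorate, agents that keep the thyroid from making hormone, for 3 days, and the pups had saline (4 males, 5 females). In the hyper group pups of untreated dams had 50 µg of T4 and 5 µg of T3 per 100 g 4 h before collection (5 males, 5 females), and in the hypo+ group pups of goitrogen-treated dams had 20 µg of T4 and 2 µg of T3 per 100 g (4 males, 3 females). The drug therefore reached pups through the dam, and which pups were litter mates is not given in the sources used here. Each array carried 1 pup's liver RNA in Cy5 and a universal mouse reference RNA in Cy3. All levels below are log2 ratios of pup over reference for 1 probe, so they compare pups and not genes.

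Acinar cells secrete their enzymes as inactive precursors, under transcription factors such as PTF1, which binds an E-box together with a TC box. The liver does not belong to this programme, and the pancreas lies close to it in the abdomen. Thyroid hormone acts through nuclear receptors that bind repeats of a half-site, AGGTCA, and liver is one of its main target tissues. In bulk RNA, fewer cells of a type and less RNA per cell cannot be told apart.

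Promoter sequences were available from RefSeq (GRCm38.p6) for 7 of the 9 genes, not Ctrc or Clps. They are shown as background on the acinar genes, and a part of these motifs in the levels below was not tested. The capitals mark the E-box CACCTG, read as CAGGTG when on the other strand, in the 250 bases before the start site. The 3 lines are Cela3b (chr4:137430521-137430770, minus strand), Cpb1 (chr3:20275734-20275983, minus strand) and Cela2a (chr4:141826006-141826255, minus strand), an elastase gene that is not among the 9 and that comes up again beside Ctrc.
Cela3b: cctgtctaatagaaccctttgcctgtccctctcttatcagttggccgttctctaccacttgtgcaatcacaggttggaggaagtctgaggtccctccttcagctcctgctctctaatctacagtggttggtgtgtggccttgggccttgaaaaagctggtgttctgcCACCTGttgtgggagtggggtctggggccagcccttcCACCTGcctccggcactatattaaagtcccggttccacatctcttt
Cpb1: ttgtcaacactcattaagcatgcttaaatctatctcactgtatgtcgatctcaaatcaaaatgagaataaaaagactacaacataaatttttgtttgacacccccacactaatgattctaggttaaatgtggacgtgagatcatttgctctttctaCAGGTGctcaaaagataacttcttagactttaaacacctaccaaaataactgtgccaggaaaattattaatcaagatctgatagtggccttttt
Cela2a: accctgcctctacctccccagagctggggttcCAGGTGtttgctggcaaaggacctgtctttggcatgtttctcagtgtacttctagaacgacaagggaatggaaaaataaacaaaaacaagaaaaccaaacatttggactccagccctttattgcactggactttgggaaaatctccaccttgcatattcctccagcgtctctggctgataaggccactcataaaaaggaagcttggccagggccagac

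On both strands, the E-box was found in 4 of the 7 promoters (Ctrl, Cela1, Cela3b and Cpb1), against 17.2% of 32851 promoters of the same length. The TC box TTTCCCA was found in 3 of the 7 (Ctrb1, Cpa1 and Reg1), against 6.82%. None of the 7 promoters held both motifs. That of Cela2a, a gene chosen for its likeness to Ctrc, held both, but apart from each other and not side by side. How many of all promoters hold both was not tested, so no weight is given to this. The receptor half-site AGGTCA was found in 1 of the 7 (Cela1), against 14% of all, and DR4, 2 copies of it in the same direction with 4 bases between, in 0 of the 7, against 0.0152%. A match gives letters in a window and not a bound site.

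Ctrc lies on chromosome 4 at 141838239 to 141846287 (GRCm38.p6), where RefSeq, whose reference mouse is C57BL/6J, lists it as a transcribed pseudogene. The long non-coding gene Ctrcos overlaps it (141844321 to 141846990). The next gene on one side is Cela2a (141814954 to 141826005), 12233 bases away with 0 annotated genes between. The probe's accession was named Ctrc from the study's own gene list, since the RefSeq table no longer holds it.

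Across the 34 arrays, the median Cy5 signal was 143 to 194.5 and 60.14% to 78.92% of 41174 probes were well above background. All 8 liver genes on the array, led by Alb, Fgb and Ahsg, had Cy5 above 1000 in every pup. The thyroid-responsive gene Dio1, which encodes a deiodinase, ran from 3.47 to 5.07 in hypo pups and from 5.60 to 7.14 in all others. Thrsp, a lipogenic gene that responds to the hormone, ran from 0.029 to 1.78 in hypo pups and from 0.97 to 4.06 in the others, so for this gene hypo pups overlapped the rest. In acinar genes 4 pups stood apart. The acinar level of a pup, the mean over 12 other secreted acinar genes of its log2 ratio minus the median over pups, was 3.10 in control male 832, 2.86 in control male 522, 1.97 in control female 831 and 0.96 in hypo+ female 543. In the other 30 pups it lay between -0.18 and 0.11. Results are therefore given with and without these 4 pups (a limit of 0.5, set after the levels were seen). Control male 832, control female 831 and hypo+ female 543 were scanned on the same date, control male 522 on another. Control female 831 and hypo+ female 543 shared a slide, and the other pups of that slide were among the 30. A part of scan date or slide in the acinar levels was not tested.

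Ctrc in control males was 1.28 in pup 881, 1.37 in pup 391, 4.31 in pup 522 and 4.85 in pup 832. In control females it was 1.07 in pup 523, 1.32 in pup 882, 1.45 in pup 394 and 4.49 in pup 831. In both sexes the controls thus fell into a low set and a very high set, and the high set was the 3 control pups with high acinar levels.

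In hypo males Ctrc was 0.42, 0.59, 0.72 and 0.85. In hypo females it was 0.38, 0.60, 0.62, 0.74 and 0.92. All 9 hypo pups lay below all 25 other pups, a pattern that 49 probes, or 0.119% of the array, showed and that is the reason Ctrc was chosen.

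In hyper males Ctrc was 1.73, 1.78, 1.86, 1.91 and 1.92, and in hyper females it was 1.56, 1.63, 1.75, 1.96 and 2.11. These 10 pups lay above every hypo pup and above the 5 control pups that did not stand apart. In hypo+ males it was 1.41, 1.42, 2.01 and 2.23, and in hypo+ females it was 1.48, 2.21 and, in pup 543, 3.36. The hypo+ pups reached from the top of the low control set to beyond the hyper pups.

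**Figure D1:**
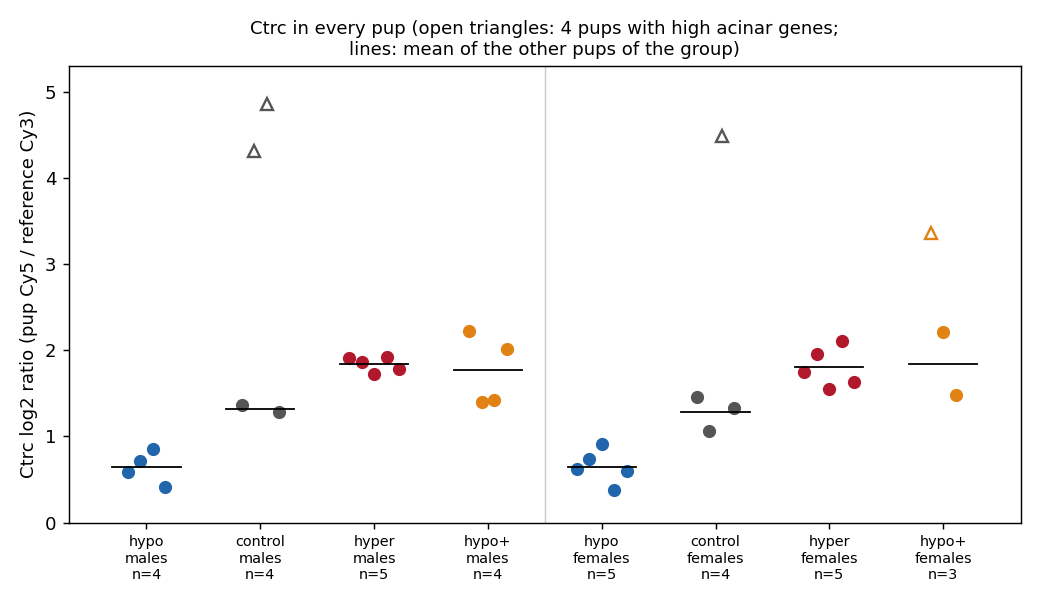
Log2 ratio of Ctrc (pup over reference) in each of 34 pups, by treatment and sex; lines are means of the pups that do not stand apart, and open triangles are the 4 pups with acinar levels of 0.96 to 3.10. Hypo pups sit at 0.38 to 0.92, low controls at 1.07 to 1.45 and hyper pups at 1.56 to 2.11.

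Over the 30 pups without the 4, the order of the medians was hypo (0.62, n = 9), control (1.32, n = 5), hypo+ (1.74, n = 6) and hyper (1.82, n = 10). Hypo, control and hyper did not overlap. Control below hyper without overlap was seen for 175 probes (0.425% of the array), and the full order hypo, control, hyper without overlap for 38 probes (0.0923%). The hypo part of the full order was fixed by the choice of Ctrc, so only the first share is free of that choice. The hypo+ pups overlapped both control and hyper.

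With all 34 pups, the 3 high controls enter every contrast with control. In limma, hyper minus control was -1.11 (SE 0.56, adjusted p = 1) in males, where 0.0753% of all probes passed the adjusted threshold of 0.05. It was -0.28 (SE 0.52, adjusted p = 0.983) in females, where 0.158% of all probes passed. Hypo+ minus control was -1.19 (SE 0.59, adjusted p = 0.691) in males, with 0.0267% of probes passing, and 0.27 (SE 0.60, adjusted p = 1) in females, with 0.0219% passing.

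Without the 4 pups the hyper contrast had the opposite sign. It was 0.52 (SE 0.18, adjusted p = 1) in males and 0.52 (SE 0.17, adjusted p = 0.46) in females, which is 1.43-fold in both. Hypo+ minus control was 0.44 (SE 0.19, adjusted p = 0.838) in males and 0.56 (SE 0.21, adjusted p = 0.815) in females. None of these passed the limma test within a sex.

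Averaged over both sexes in 1 limma fit of the 8 groups and 30 pups, hyper minus control was 0.52 (SE 0.13, adjusted p = 0.0838), rank 261 by p, and 0.459% of probes passed. With slide as a fixed block it was 0.51 (SE 0.090, limma adjusted p = 0.0101), and as a random block 0.52 (SE 0.11, limma adjusted p = 0.0176). The Cy5 signal alone gave 0.49 (SE 0.10, limma adjusted p = 0.0301). These alternatives are named because they put hyper minus control on the other side of the threshold. Leaving out 1 further pup at a time gave 0.46 to 0.56 in 15 fits. None of those fits passed (limma adjusted p of 0.0651 to 0.464). Hypo+ minus control was 0.50 (SE 0.15, limma adjusted p = 0.186), with 0.119% of probes passing. Hypo+ minus hyper was -0.015 (SE 0.13, limma adjusted p = 0.978), with 3.61% of probes passing, so these neighbours in the order did not differ beyond their spread. This fit takes male and female pups as independent, while the study's methods kept the sexes apart because of the dam.

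As a description, hypo minus control over both sexes was -1.87 (SE 0.42) with 34 pups and -0.65 (SE 0.13) without the 4. Hypo+ minus hypo was 1.41 (SE 0.43) and 1.16 (SE 0.13), so the SE was smaller without the 4 pups. These contrasts, like the hyper and hypo+ contrasts above, share their control or hypo pups.

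Another way of treating the 4 pups kept them in and gave the fit their acinar level as a covariate. Over both sexes this put hypo minus control at -0.58 (SE 0.16), hyper minus control at 0.54 (SE 0.15, limma adjusted p = 0.144) and hypo+ minus control at 0.56 (SE 0.16, limma adjusted p = 0.131). Each value lay within 1 SE of the value without the 4 pups. The acinar level was 0.96 to 3.10 in those 4 and -0.18 to 0.11 in the other 30, so the 4 largely set its slope. This fit is therefore not independent of leaving them out.

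**Figure D2:**
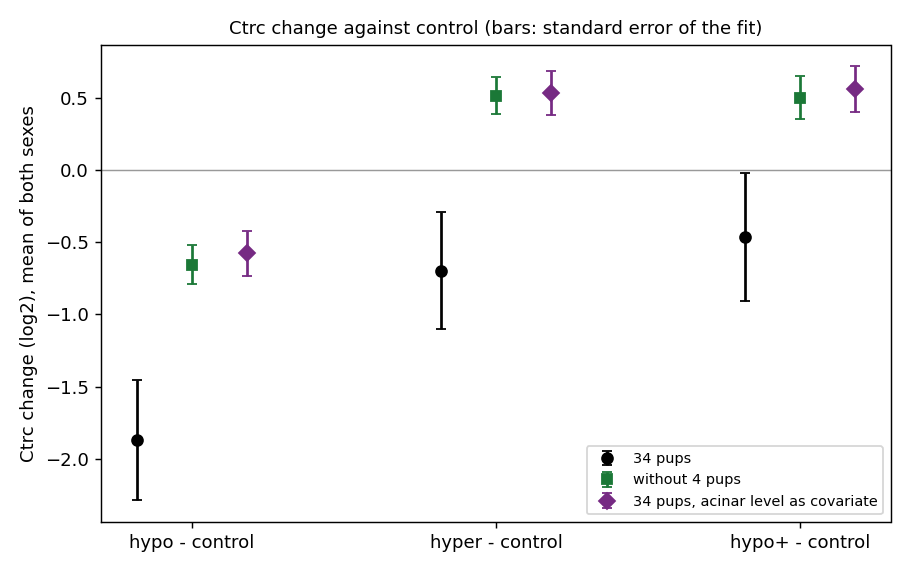
Change of Ctrc against control (log2, mean of both sexes) with its standard error, with 34 pups, without the 4 pups, and with acinar level as a covariate. With 34 pups all 3 contrasts lie below 0 (-1.87, -0.70 and -0.46); in the other fits hyper and hypo+ lie above 0 (0.50 to 0.56) and hypo below it.

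Pups of several groups shared slides, so differences could be taken within a slide. Between pups that did not stand apart, hypo minus control ran from -0.86 to -0.59 on 4 slides, a direction that the choice of Ctrc fixed. Hyper minus control ran from 0.30 to 0.78 and was above 0 on 5 of 5 slides. Hypo+ minus hypo ran from 0.70 to 1.09 on 3 slides, a direction that the choice of Ctrc fixed as well. Hypo+ minus control was 0.41 and 0.65 on 2.

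The female and male changes of Ctrc were compared directly. Without the 4 pups, the female minus male difference of the hyper change was 0.0045 (SE 0.26) and that of the hypo+ change 0.12 (SE 0.30), both with a limma adjusted p of 1. In that fit 0% of probes passed.

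In each of the 3 control pups that stood apart, 9 of the 9 genes lay above all other 30 pups, and in hypo+ female 543, 8 of the 9 did. Over all probes that share was 2.73% in control male 832, 3.07% in control male 522, 4.09% in control female 831 and 3.16% in hypo+ female 543. Cpb1, which encodes a carboxypeptidase that trims basic residues, was 7.20 in control male 832, 6.49 in control male 522, 5.38 in control female 831 and 3.65 in hypo+ female 543. In the other 30 pups it ran from -0.0061 to 0.59, with medians of 0.16 in control, 0.22 in hyper, 0.23 in hypo and 0.24 in hypo+. No treatment separated from another in those 30.

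Cela3b, an elastase gene, was 6.20, 5.68, 5.18 and 3.41 in the same 4 pups, in the same order. In the other 30 pups it ran from 0.0059 to 0.54. Cela1, the other elastase gene, was 4.29, 4.04, 2.35 and 0.35, against -1.11 to -0.28 in the rest. Within those 30 pups Cela1 was -0.73 to -0.55 in control, -0.91 to -0.28 in hyper, -1.11 to -0.48 in hypo and -0.99 to -0.78 in hypo+. Hypo+ lay below control without overlap, as did 0.697% of all probes, and over both sexes hypo+ minus control was -0.25 (SE 0.10, limma adjusted p = 0.408).

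Cpa1, a carboxypeptidase gene, was 4.37, 3.85, 4.07 and 2.41, against -0.090 to 0.53 in the other 30 pups. Clps, which encodes the cofactor of pancreatic lipase, was 4.54, 4.14, 4.03 and 2.25, against -0.13 to 0.27. For these genes the 4 pups did not overlap the other 30.

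The remaining chymotrypsin genes differed less. Ctrl was 2.66, 2.50, 1.35 and 0.81 in the 4 pups, against -0.40 to 0.65 in the rest. Ctrb1 was 2.36, 2.11, 1.41 and 1.15, against 0.62 to 1.27, so that hypo+ female 543 lay inside the range of the rest for this gene. Ctrb1 was also the member with the brightest Cy5 in those 30 pups, 897 to 1754.5. Cpa1 stayed at 82 to 158 and was flagged by the scanner software as well above background in 23 of 30.

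**Figure D3:**
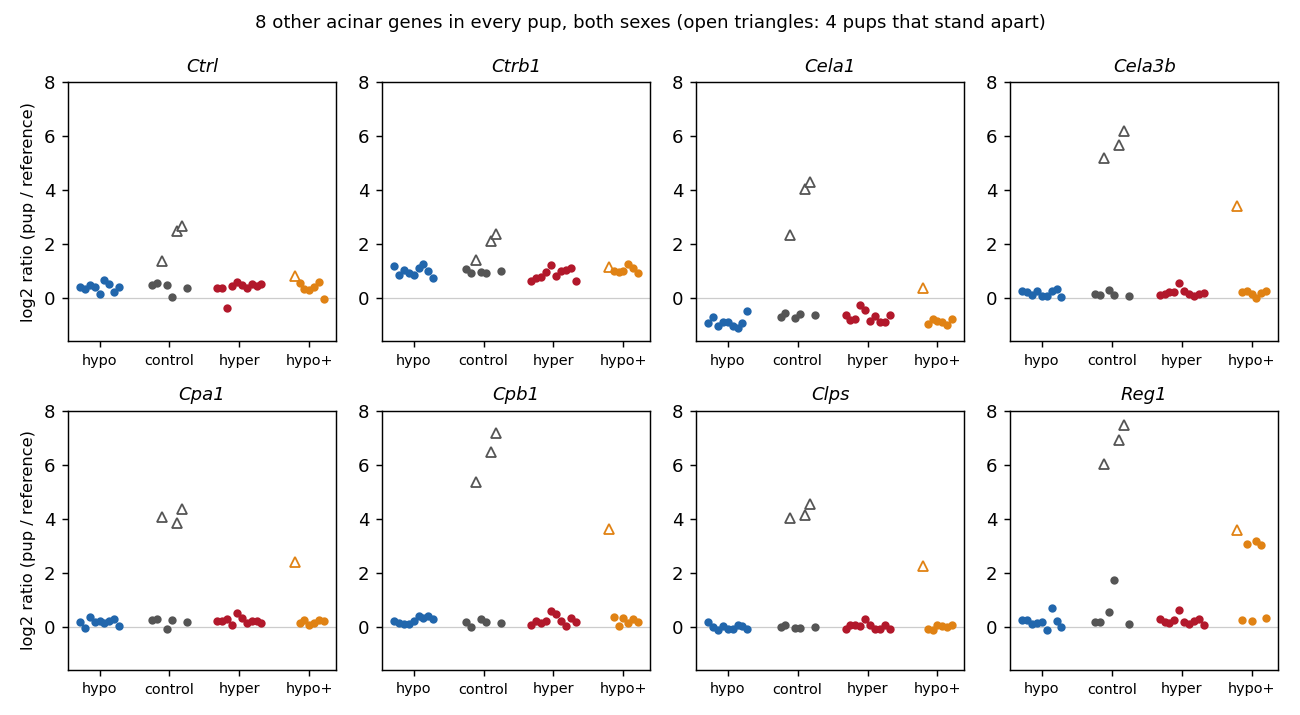
Log2 ratio (pup over reference) of the 8 other acinar genes in each of 34 pups, by treatment with sexes together; open triangles are the 4 pups that stand apart. For Cpb1, as an example, the 4 pups lie at 3.65 to 7.20 and the other 30 at -0.0061 to 0.59, and for Reg1 some of the 30 are also high.

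Without the 4 pups, the median change of the 8 genes was 0.037 for hypo minus control in males and -0.011 in females. It was -0.009 and 0.068 for hyper, and 0.064 and 0.019 for hypo+, beside medians over all probes of -0.005 to 0.002. In limma 0 of the 8 passed in any of these 6 comparisons. Of all probes, 0.00486% (hypo), 0.00243% (hyper) and 0.00486% (hypo+) passed in males, and 0.0923%, 0.0874% and 0.00971% in females. At an unadjusted p under 0.05, 1 of the 8 was found in hypo+ females, where 2046 of all probes were, and 0 in the other 5 comparisons, where 1069 to 2836 probes were. Ctrc without the 4 pups ran from -0.68 to 0.56 in the same comparisons.

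With all 34 pups the same 8 genes had medians of -2.42 (hypo), -2.37 (hyper) and -2.25 (hypo+) in males, and -0.99, -0.90 and -0.15 in females. These male contrasts share the 4 control males, of which 2 stood apart. In limma 0 of the 8 passed, with 0.0971% of probes passing for hypo in males and 0.155% in females and the shares given above for hyper and hypo+. At an unadjusted p under 0.05, 8 of the 8 genes were found in hyper males, 6 in hypo+ males, 1 in hyper females and 0 in hypo+ females. Of all 41174 probes 1224, 3113, 2535 and 1973 were found in these comparisons. In hypo males 8 of the 8 and 2140 probes were found, and in hypo females 0 and 1945.

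Across 34 pups Ctrc followed the 8 genes with a Pearson r of 0.68 to 0.88. Over the 30 pups r was -0.13 to 0.23. These points share the reference RNA and the slides, and r is a description. With the acinar level itself, r of Ctrc was 0.866 over 34 pups and 0.382 over 30, while Cpb1 had 0.988 and 0.19.

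**Figure D4:**
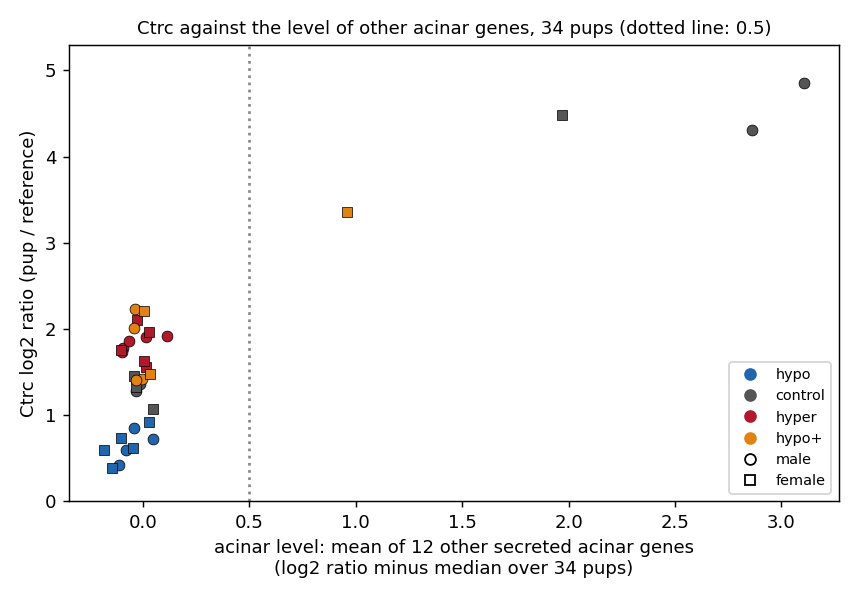
Ctrc log2 ratio against the acinar level of each of 34 pups (mean over 12 other secreted acinar genes, log2, centred on the median pup), coloured by treatment, circles male and squares female. The 4 pups right of the dotted line at 0.5 have Ctrc of 3.36 to 4.85. Left of it acinar levels of -0.18 to 0.11 go with Ctrc of 0.38 to 2.23. There hypo, control and hyper do not overlap, while hypo+ overlaps control and hyper.

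The 12 other secreted acinar genes gave the acinar level that set the 4 pups apart, so their count was largely fixed by that choice. They are led by Amy2a5 (amylase), Pnliprp1 (a lipase-related protein) and Cel (carboxyl ester lipase). Of these genes, 12 lay above all other 30 pups in each of the 3 control pups and 10 in hypo+ female 543. Of 10 granule genes, led by Sycn, Zg16 and Serpini2, the same held for 10, 10, 8 and 5. Of the 3 acinar transcription factor genes it held for 1, 1, 0 and 0: Bhlha15 was 0.93, 0.71, 0.70 and 0.59, against -0.056 to 0.99 in the other 30. Ptf1a, the gene counted, was 0.39, 0.25, 0.14 and 0.069, against -0.15 to 0.18 in the other 30. Its Cy5 signal was only 105 in control male 832 and 100 in control male 522. The limit from the negative-control spots was 85.04 to 105.5 over the arrays. Rbpjl was 0.70, 0.56, 0.23 and -0.0068, against 0.86 in hypo+ male 546 and -0.53 to -0.036 in the other 29. Of the 6 other genes of the Reg family, led by Reg3b, Reg2 and Reg3d, it held for 3, 4, 5 and 2. Over all probes the share was 2.73% to 4.09% in these pups, as given above.

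Markers of the islet, the hormone-making part of the pancreas, were also higher in the control pups that stood apart. Of 10 islet genes, led by Ins2, Iapp and Sst, 7, 6, 8 and 1 lay above all other 30 pups. Ins2, an insulin gene, was 3.19, 2.26, 3.43 and 0.19, so hypo+ female 543 had acinar genes without a raised insulin level. Of 6 gut epithelium genes, led by Fabp2, Tff3 and Vil1, and of 8 liver genes 0 lay above the 30 in any of the 4 pups. The mean islet level in the other 30 pups ran from -0.058 to 0.11, and the part of pancreatic tissue in these values was not tested.

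The Cy3 channel holds the same reference on every array, yet its Ctrc signal was 723 in control male 832 and 806 in control male 522, against a median of 53.75 in the other 2 control males. That is 13.5 and 15 times higher, and it was 8.94 and 9.55 times higher for Cpa1 and 6.07 and 7.89 times for Clps. For Cpb1 it was 1.98 and 2.94 times, and for Reg1 1.07 and 1.61 times. Over all probes the median Cy3 ratio in these pups was 0.86 and 1.06, and 0.00971% and 0.0146% of probes were at least 5 times higher. In control female 831 the Cy3 signal of Ctrc was 3.34 times the median of the other control females. In hypo+ female 543 it was 1.3 times that of the other hypo+ females. In control male 832 the rise of Ctrc over the other 2 control males was 3.53 as a log2 ratio and 6.75 in Cy5 alone, so the ratio gave a smaller value than the Cy5 signal where Cy3 was raised. The cause was not tested.

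Reg1 had a pattern of its own. It was 7.50, 6.93, 6.04 and 3.59 in the 4 pups. It was also 3.17 in hypo+ male 454, 3.07 in hypo+ female 763, 3.04 in hypo+ male 546 and 1.73 in control male 391, while the other 26 pups ran from -0.11 to 0.71. In these further pups Cpb1 was between 0.020 and 0.30, inside the range of the rest.

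The genes most like Reg1 over the 30 pups were a transcript known only by its accession (r = 0.975), Degs2 (0.964), Krt19 (0.953), BC058768 (0.953) and Vil1 (0.936), with Spearman rho of 0.298 to 0.588, so r rests on few pups. Krt19 encodes a keratin of simple and ductal epithelia and Vil1 the microvillus protein villin. Vil1 was 1.17 in hypo+ male 454, 0.90 in hypo+ female 763, 1.04 in hypo+ male 546 and 0.40 in control male 391, against -0.078 to 0.25 in the other 26. In the 4 pups with high acinar levels Vil1 was 0.17, -0.016, 0.34 and 0.19. Krt19 was -0.97, -0.96, -0.84 and -1.56 in the former pups, against -2.70 to -2.04 in the other 26. In the 4 pups with high acinar levels Krt19 was -2.25, -2.40, -1.91 and -2.52. Control female 831 thus lay above those 26 for Krt19 and for the Vil1 probe given here. The brighter Vil1 probe, counted in the gut epithelium list, was 1.16 in hypo+ male 454, 1.08 in hypo+ female 763, 1.26 in hypo+ male 546 and 0.59 in control male 391. On that probe control female 831, at 0.29, lay below control female 882 of the 26, at 0.34.

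Over both sexes and the 30 pups, Reg1 in hypo+ minus hyper was 1.44 (SE 0.40, limma adjusted p = 0.0423), a comparison in which 3.61% of probes passed. Leaving out 1 pup at a time moved it between 0.73, without hypo+ female 763, and 2.15, without hypo+ female 601, and it did not pass in 11 of these 16 fits. With slide as a fixed block it was 2.39 (SE 0.40, limma adjusted p = 0.0146), and with median centring 1.24 (SE 0.33, limma adjusted p = 0.252). Hypo+ minus control was 1.07 (SE 0.47, limma adjusted p = 0.453), and hypo+ minus hypo, as a description, was 1.47 (SE 0.41). The 3 hypo+ pups at 3.04 to 3.17 were among the 6 hypo+ pups of this fit. Hypo+ minus hyper was not among the comparisons planned for Reg1, so its adjusted p is a description.

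**Figure D5:**
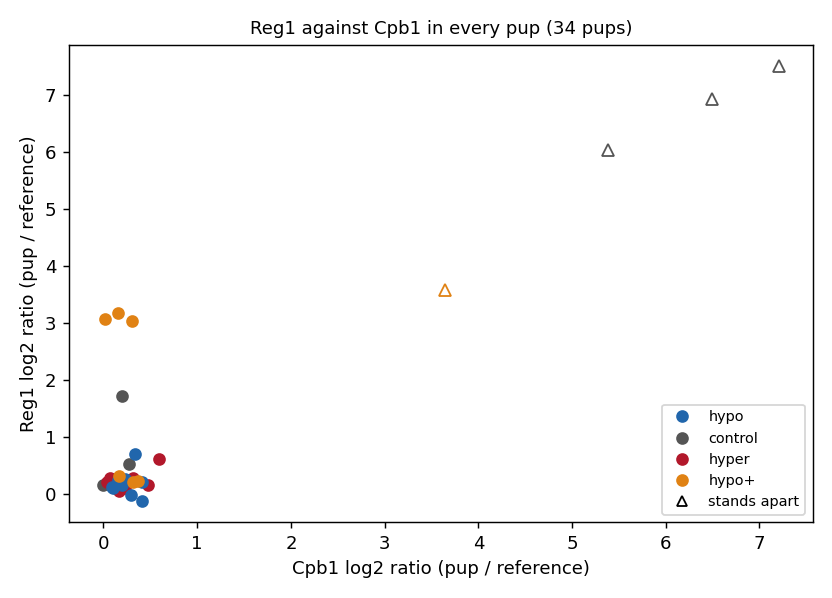
Log2 ratio of Reg1 against that of Cpb1 in each of 34 pups, coloured by treatment, with open triangles for the 4 pups that stand apart. Both genes are high in those 4; 3 hypo+ pups and 1 control lie at Reg1 of 1.73 to 3.17 with Cpb1 at 0.020 to 0.30.

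The gene whose ratio over the 34 pups was most like Ctrc was its neighbour Cela2a (r = 0.949, rho = 0.916), whose promoter is printed above. Others near the top were Tff2 (r = 0.861, rho = 0.589), 2210010C04Rik (0.854, 0.241) and Prss2 (0.852, 0.346). In contrast the 5 genes most like Cpb1, among them Prss2 (r = 0.986) and Cel (0.979), did not include Cela2a.

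Cela2a is itself 1 of the 12 genes of the acinar level. It was 4.16, 3.81, 3.69 and 2.24 in the 4 pups. Over the other 30 it ran from 0.11 to 0.37 in hypo, 0.42 to 0.62 in control, 0.51 to 0.72 in hypo+ and 0.58 to 1.05 in hyper. The Cy5 signal was well above background, by the scanner software's flag, in 1 of 9 hypo pups and in all 21 other pups. For Cy3 that flag was set in 0 of the 30, so these ratios have a reference not measured well above background. Control overlapped hyper. Over these 30 pups r with Ctrc was 0.88 and rho 0.879. Cela2a was chosen for its likeness, so no test is given. Its Cy5 signal there was only 86 to 156.5, near a separate limit from the negative-control spots, 85.04 to 105.5.

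Other genes of the same stretch of chromosome 4 did not show that order of means over the 30 pups. Casp9, the initiator caspase gene, averaged 0.81 in hypo, 0.92 in control, 0.62 in hyper and 0.63 in hypo+. Dnajc16, a chaperone gene, averaged 0.86, 0.98, 0.97 and 0.84, and Efhd2, a calcium-binding protein gene, 0.33, 0.25, 0.25 and 0.35.

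Over the same 30 pups, the probes most like Ctrc were those named DXBay18 (r = 0.939), AK173243 (0.928), Ulk1 (0.927), Prei4 (0.924) and Gpcpd1 (0.912), with rho of 0.886 to 0.92. Prei4 is an older name of Gpcpd1, a phosphodiesterase gene of choline metabolism, and Ulk1 encodes a kinase that starts autophagy. Gpcpd1 averaged 0.37 in hypo, 0.97 in control, 1.73 in hyper and 1.85 in hypo+, and Ulk1 0.52, 1.1, 1.35 and 1.23. None of these is in the acinar lists, and r again is over pups that share reference and slides.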

How the data were processed

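Livers of 34 pups were measured on Agilent 2-colour arrays. Per the file headers, the authors' scans were read with Agilent Feature Extraction, which gives spot intensity values and a log10 ratio of Cy5 over Cy3 for each probe, and the authors deposited a table of normalized values whose log2 scale was found by its slope of 0.9855 to 0.992 on the ratios used here (column medians -0.050 to -0.018, centring method not given). The dyes are those of the labels, with no dye swap. Median signals without background subtraction were normalized within arrays by loess after leaving out control spots, and tested per sex with limma 3.58.1 (R 4.3.3) over 4 groups, with Benjamini-Hochberg adjustment over 41174 probes and a threshold of 0.05. This was tested on simulated data. Probes were named through RefSeq (16806 of 33541 accessions) and the study's gene list (18 more). Alternatives were normexp (offset 50), median centring, the deposited log2 values, the log10 ratio turned to log2, Cy5 alone, a filter on dim probes, slide as a block, other sample sets and each array left out. The text names the 9 genes, the 3 brightest of each list and the 5 genes most like Ctrc and Cpb1, of which 1 is not reported here. Genes named beyond these (Cela2a's neighbours, and those like Ctrc or Reg1 over 30 pups) were chosen after their values were seen. Members and lists were chosen with earlier results of these data known. No member spot was saturated or marked on any array. The number of arrays limits the precision, the study's methods treat pups of 1 sex as independent and tested the sexes apart because of the dam, and p-values measure the spread between these pups.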

Additional observations from a re-analysis of the deposited data

Results flagged for a closer look

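In 63 groups of 4 or 5 pups, 10 values had a gap to the next pup larger than Dixon's limit for that group size. Chance alone flags about 1 group in 20. Of the 10, 8 belonged to control female 831, at 4.49 for Ctrc, 1.35 for Ctrl, 2.35 for Cela1, 5.18 for Cela3b, 4.07 for Cpa1, 5.38 for Cpb1, 4.03 for Clps and 6.04 for Reg1. In control males 2 pups were high, so neither was far from its nearest neighbour by this measure. The remaining values were Ctrl in hyper female 621, at -0.40, and Cela3b in hyper female 861, at 0.54.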

How the results depend on the processing

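Leaving out the 4 pups that stood apart, an alternative chosen after seeing the data, or using their acinar level as a covariate, turned the direction of the Ctrc hyper contrasts and of hypo+ minus control in males and over both sexes. Hypo minus control stayed below 0, and hypo+ minus control in females above 0. Without the 4 pups and with the covariate, in that order, hyper minus control was 0.52 and 0.52 in males, 0.52 and 0.52 in females, and 0.52 and 0.54 over both sexes. Hypo+ minus control was 0.44 and 0.45 in males and 0.50 and 0.56 over both sexes. Hypo minus control moved to -0.68 and -0.65 in males and to -0.65 and -0.58 over both sexes, and with the covariate to -0.51 in females. The median of the 8 other genes moved in males to 0.037 and 0.063 (hypo), -0.0088 and -0.0081 (hyper) and 0.064 and 0.066 (hypo+), and with the covariate to 0.11 in hypo females.

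The Cy5 signal alone gave Ctrc -3.80 for hypo minus control in males and -0.045 for hypo+ minus control in females. Leaving out 1 pup moved hyper minus control in females between -0.62 and 0.52 (positive only without control female 831), and hypo+ minus control in females between -0.24 and 1.07, below 0 without control female 523 or hypo+ female 543. Without the 4 pups, the software's log ratio put hypo minus control at -1.22 in males and -1.03 over both sexes, and hypo+ minus hypo at 1.70 in males, 1.58 in females and 1.64 over both. Over both sexes without the 4 pups, hyper minus control passed limma's threshold with Cy5 alone (0.49), slide as a fixed block (0.51) and slide as a random block (0.52). It passed in none of the 15 fits that left out 1 further pup. Leaving out 1 further pup moved hypo+ minus control over both sexes between 0.32 and 0.69, with an adjusted p of 0.0405 without hypo+ female 763, and hypo+ minus hypo in females between 0.83 and 1.56. The cause of these changes was not tested. The other 614 recomputed values kept their direction and side of the threshold, or moved by less than the spread between pups.

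Of 502 fits of the 8 other genes by sex or against control or hypo over both sexes, 480 had 0 calls, and the most was 3. Reg1 in hypo+ minus hyper also missed the threshold with Cy5 alone (1.29) and the software's log ratio (2.02). Cela1, Cela3b, Cpa1, Cpb1 and Clps had Cy5 of at most 245 in the 30 pups, which limits what a ratio can show there. No paired analysis was possible because the replicate numbers are animal numbers and no number is shared between groups, while slides, which groups did share, were used as blocks.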
